A study of Mus musculus with 20 samples.

Results

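Annulus fibrosus (AF) is the lamellar fibrous ring of the intervertebral disc, and the measurements described here are its RNA profiles in old mice given MDL-800 or vehicle. They are the 10 AF libraries among the 20 libraries of the series, chosen by the tissue named in the column headings of the deposited table and in the sample titles. The other 10 libraries are from nucleus pulposus (NP), the soft centre that the ring encloses. BL6 mice of 18 months were assigned at random to 2 groups and injected intraperitoneally every week for 6 months, up to 24 months of age. The 5 AF vehicle libraries (numbered 8, 9, 10, 12 and 13) came from mice that received DMSO alone, and the 5 AF MDL-800 libraries (25, 27, 28, 29 and 30) from mice that received MDL-800 dissolved in the same amount of DMSO. DMSO exposure is thus common to both groups, and no untreated or young AF is among the samples. The titles speak of AF cells, whereas the protocol describes tissue dissected under a microscope and put directly into an RNA-stabilising solution. The column headings carry a different animal number for each AF library, and 8 of the animals also gave an NP library.

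MDL-800 is a small molecule developed as an allosteric activator of SIRT6, an NAD-dependent enzyme that removes acetyl groups from histone H3 and acts in chromatin silencing, DNA repair and metabolism. An activator of this kind acts on the protein, so it need not alter the level of its transcript. The AF is built by fibroblast-like cells that lay down type I collagen in the outer lamellae and by more chondrocyte-like cells that lay down type II collagen and aggrecan in the inner lamellae. It is anchored to the cartilage endplate and the rim of the vertebral bone, its outer layers carry small vessels and nerve endings, and paraspinal muscle lies outside it.

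The labelled tissue was checked against its markers. The mean level of the 29 genes of fibrous ring matrix and tendon-like factors, as log2 of scaled FPKM + 1, was 5.64 to 7.15 in AF libraries and 2.64 to 3.60 in NP libraries. The NP markers had a mean level of 4.65 to 5.99 in AF against 5.93 to 6.27 in NP. Their transcripts were thus present in every AF library. The highest AF mean, in MDL-800 library 25, lay within the NP range, and which cells gave these transcripts was not tested. The summed level of these markers was highest in vehicle library 9 (4716 scaled FPKM, against 3529 in MDL-800 library 25). Estimated depth, in M fragments (mega, as in FPKM), was 18.6 to 21.2 in AF vehicle and 17.8 to 21.3 in AF MDL-800, a difference within the spread (exact two-sided permutation test, p = 0.7857). All 10 AF libraries carried Y-linked transcripts, with Ddx3y at 22.1 to 29.5 scaled FPKM and Xist at no more than 0.228. In these bulk tissue samples, fewer cells of a type and less RNA per cell cannot be told apart.

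The question of the comparison was which transcripts of aged AF differ after long-term MDL-800. No gene did so beyond the spread between libraries: 0 of 16383 genes tested passed an adjusted p under 0.05 (limma, Benjamini-Hochberg), which is 0% of them. The smallest adjusted p was 0.638 by limma, for the processed pseudogene Gm3470. An unadjusted p under 0.05 was reached by 151 genes with a higher mean after MDL-800 (0.922%) and by 119 with a lower mean (0.726%), together 1.65% of the genes tested, which is below the share this threshold admits by definition. The 5 MDL-800 values all lay above the 5 vehicle values in 21 genes (0.128%) and all below in 16 (0.0977%). Every gene named hereafter therefore has an adjusted p of 1 in this fit by limma, and its values are given as a description of these libraries. The 95% interval of the log2 difference had a median half-width of 0.385, and for 88.6% of genes it lay wholly between -1 and 1. Values in single libraries are scaled FPKM and are given in the order 8, 9, 10, 12, 13 for vehicle and 25, 27, 28, 29, 30 for MDL-800. Differences are MDL-800 minus vehicle on the log2(scaled FPKM + 1) scale with their standard error (SE).

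Sirt6, which encodes the protein that MDL-800 is named to activate, was expressed at a low and similar level in both groups. It measured 5.47, 5.01, 4.47, 2.85 and 5.84 in vehicle AF and 6.12, 2.69, 4.97, 6.26 and 7.69 in MDL-800 AF. The groups overlapped, with vehicle library 12 and MDL-800 library 27 lowest in their groups. The difference was 0.16 (exact two-sided permutation test over 252 splits, p = 0.5159), with a 95% interval of -0.36 to 0.69 in the limma fit. None of the 7 sirtuin genes had an unadjusted p under 0.05.

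Bone genes held the largest share of members with a higher mean at an unadjusted p under 0.05 among the lists examined. Of 22 listed genes of bone matrix, osteoblasts and osteocytes, 21 were tested, 19 had a positive difference (90.5%, against 52.6% of all genes tested), and 8 had an unadjusted p under 0.05 with a higher mean (38.1%, against 0.922% of all genes). None had one with a lower mean, none passed the adjusted threshold, and the median difference was 0.72, against 0.01 over all genes. The lists were drawn up with earlier results of these data known. Such shares therefore describe these libraries and are not independent support. Bglap encodes osteocalcin, the main non-collagen protein that osteoblasts deposit (chr3:88383501-88384464 on GRCm38, minus strand). Its level was 396, 280, 346, 104 and 191 in vehicle AF and 319, 733, 522, 1045 and 1035 in MDL-800 AF. All MDL-800 libraries but 25 exceeded the highest vehicle library, and the difference was 1.48 ± 0.42 (SE). Its neighbour Bglap2 differed by 1.50 ± 0.59 (SE). The 2 transcripts are 98.9% identical, so reads may have been divided between them in a way that the table does not show. The 2 genes may thus not be separate measurements.

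Transcription factors of the osteoblast lineage had the same sign. Sp7, which encodes osterix, was at 15.8, 6.91, 6.83, 4.42 and 17.0 in vehicle AF and at 11.2, 14.0, 32.2, 21.8 and 16.6 in MDL-800 AF. Its difference was 0.92 ± 0.38 (SE), with overlapping groups. Dlx5, a regulator of osteoblast differentiation, differed by 0.83 ± 0.36 (SE). Ifitm5, a membrane protein of mineralising osteoblasts, differed by 0.88 ± 0.34 (SE), the fibrillar collagen gene Col24a1 by 0.91 ± 0.29 (SE), and the carbonic anhydrase gene Car12 by 1.00 ± 0.36 (SE). The osteocyte gene Dmp1 was at 14.5, 6.54, 5.77, 1.63 and 9.75 in vehicle AF and at 9.34, 9.41, 11.8, 12.3 and 13.1 in MDL-800 AF. The MDL-800 libraries were thus close together, and vehicle library 12 was the lowest of all 10.

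That library was lowest for 11 of the 21 bone genes tested. Without it the list's median difference was 0.45, and without vehicle library 8, the vehicle library with the highest mean level of the list, it was 0.91. The mean level of the bone list was 4.77, 4.12, 4.20, 3.47 and 4.40 in vehicle AF and 4.46, 4.72, 5.16, 5.01 and 4.84 in MDL-800 AF. Vehicle library 12 also had one of the highest mean levels of skeletal muscle genes, 8.60 against 5.28 to 8.64 in the other AF libraries, and the part of this in the bone difference was not tested. Genes of osteoclasts, the cells that resorb bone, did not share the pattern: 7 of 14 tested had a positive difference, none had an unadjusted p under 0.05, and their median difference was -0.00. In the plot of list medians the bone list stands farthest to the right, and its whole leave-one-out range lies above the median of all genes. The latter also holds for the cartilage matrix, hypertrophic cartilage, mast cell, and pericyte and smooth muscle lists.

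**Figure D1:**
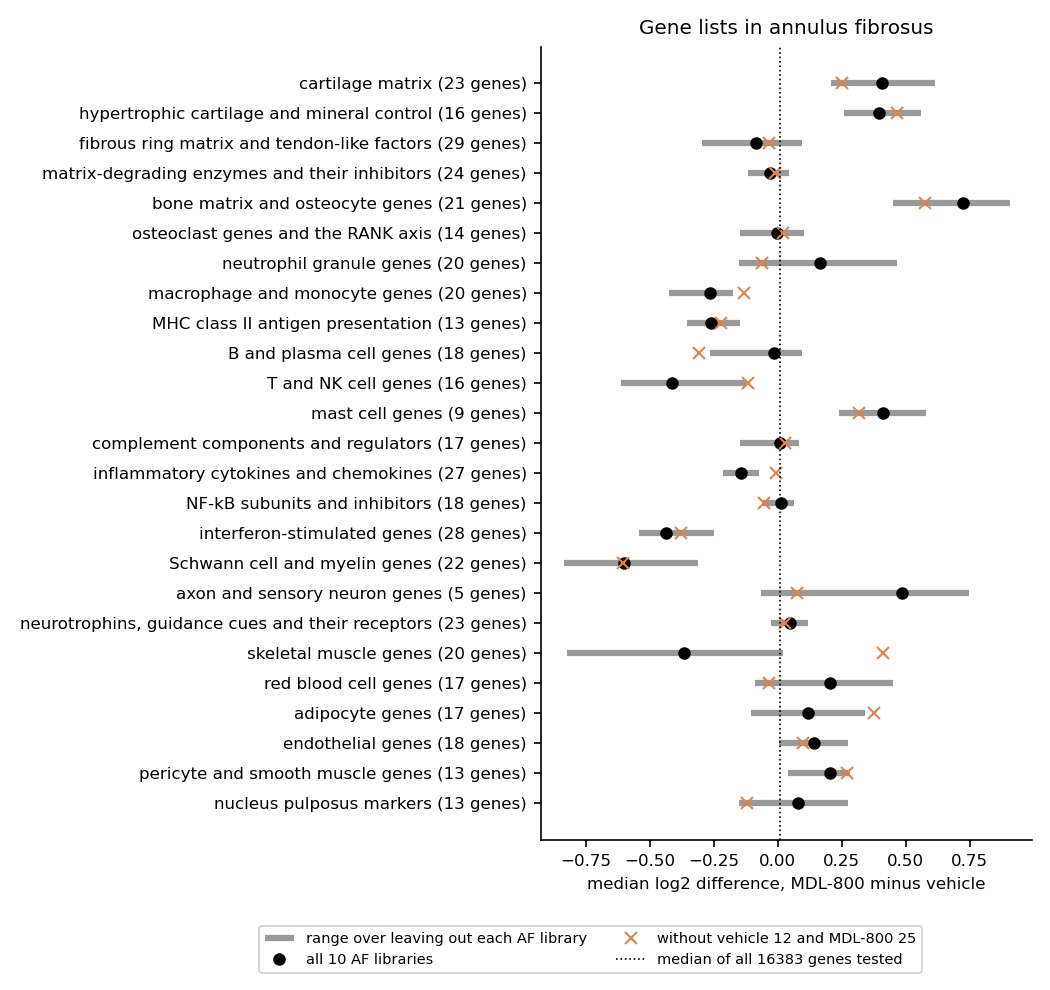
Median log2 difference (MDL-800 minus vehicle) of 25 gene lists in AF, with the number of genes tested in each; grey bars span the medians obtained when each AF library is left out, crosses omit vehicle 12 and MDL-800 25, and the dotted line is the median of all 16383 genes tested. The bone list is at 0.72 and the Schwann cell list at -0.60, while the skeletal muscle list moves from -0.37 to 0.41 when the 2 libraries are left out.

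Most cartilage matrix genes had a higher mean as well, but the genes of the principal cartilage proteins had smaller differences. Of 23 cartilage matrix genes tested, 21 had a positive difference (91.3%, against 52.6% of all genes), 4 had an unadjusted p under 0.05 with a higher mean (17.4%, against 0.922% of all genes), and the median was 0.41. Cnmd encodes chondromodulin, a cartilage glycoprotein that inhibits vessel growth (chr14:79637690-79662170 on GRCm38, minus strand). It was at 81.5, 17.5, 51.4, 22.4 and 140 in vehicle AF and at 88.7, 144, 274, 187 and 80.3 in MDL-800 AF, a difference of 1.54 ± 0.56 (SE). Vehicle libraries 9 and 12 were far below the others. Col11a2 and Col9a2, whose collagens associate with type II fibrils, differed by 1.40 ± 0.60 (SE) and 1.35 ± 0.61 (SE), and Ucma, a small secreted cartilage protein, by 0.78 ± 0.31 (SE).

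By contrast, Col2a1, which encodes type II collagen, was at 1192, 123, 361, 88.8 and 171 in vehicle AF and at 418, 362, 334, 334 and 143 in MDL-800 AF. A single vehicle library, 8, was above all others, and the difference was 0.31 ± 0.63 (SE) with an interval of -1.09 to 1.72. Acan, the gene of the large proteoglycan aggrecan, differed by 0.16 ± 0.39 (SE) between -0.70 and 1.03, and Comp, an oligomeric matrix protein, by 0.06 ± 0.42 (SE) between -0.86 and 0.99. All 3 intervals are wide and include differences of either sign. Width does not set them apart, since Cnmd, Col11a2 and Col9a2 had larger SEs than Acan and Comp. The mean level of the cartilage list was lowest in vehicle libraries 12 (5.19) and 9 (5.37) and in MDL-800 library 30 (5.74), and highest in MDL-800 library 28 (7.03) and vehicle library 8 (6.90). Its median difference was 0.21 without vehicle library 12 and 0.62 without vehicle library 8.

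Genes of hypertrophic cartilage and mineral control held 3 further members with a higher mean at an unadjusted p under 0.05, of 16 tested (18.8%, against 0.922% of all genes), and 11 had a positive difference (68.8%, against 52.6%). The list's median was 0.40, and 0.26 without MDL-800 library 28. Alpl encodes the alkaline phosphatase that frees phosphate for mineral. It was at 63.8, 19.1, 29.4, 17.6 and 47.6 in vehicle AF and at 70.1, 47.2, 117, 68.5 and 47.7 in MDL-800 AF, a difference of 1.05 ± 0.38 (SE). Panx3, a channel protein of prehypertrophic chondrocytes and osteoblasts, was at 8.10, 1.21, 3.00, 2.24 and 19.8 against 10.1, 21.4, 49.3, 20.9 and 6.51. The groups overlapped in both, and Panx3 differed by 1.72 ± 0.66 (SE). Ihh, the hedgehog ligand of the growth plate, differed by 1.44 ± 0.62 (SE). Col10a1, the type X collagen gene that defines hypertrophic cartilage, was at 135, 27.8, 30.9, 25.2 and 35.6 in vehicle AF and at 72.2, 173, 104, 33.7 and 28.8 in MDL-800 AF, with no unadjusted p under 0.05.

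Fibrous matrix and tendon-like genes, the class that marks AF itself, had a median difference of -0.08. Of 29 genes, 7 had a positive difference (24.1%, against 52.6% of all genes). Only Kera had an unadjusted p under 0.05, with a lower mean (3.45%, against 0.726% of all genes). Kera encodes keratocan, a small leucine-rich proteoglycan, and was at 11.4, 8.10, 8.12, 4.45 and 15.2 in vehicle AF and at 1.21, 6.83, 5.77, 6.81 and 1.27 in MDL-800 AF, a difference of -1.09 ± 0.44 (SE). MDL-800 libraries 25 and 30 were well below the rest. Col1a1, the main collagen gene of the outer ring and of bone, was at 1964, 339, 442, 454 and 514 in vehicle AF and at 989, 538, 1514, 1149 and 1166 in MDL-800 AF. Vehicle library 8 was above all MDL-800 libraries, and the other 4 vehicle libraries were below all of them.

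Matrix-degrading enzymes and their inhibitors centred on no difference, with a median of -0.03 over 24 genes tested and 11 positive. Mmp16 stood apart within this list (chr4:17852893-18119145 on GRCm38, plus strand). It encodes a membrane-anchored matrix metalloproteinase and was low, at 1.70, 0.878, 1.05, 0.790 and 1.22 in vehicle AF and 1.92, 2.25, 3.08, 2.27 and 2.79 in MDL-800 AF. The groups did not overlap, and the difference was 0.71 ± 0.14 (SE), with the smallest unadjusted p among the genes of all lists. No other member of this list had an unadjusted p under 0.05, so the share with a higher mean was 4.17%, against 0.922% of all genes. Plots of 12 genes by library show how far most of these groups overlap.

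**Figure D2:**
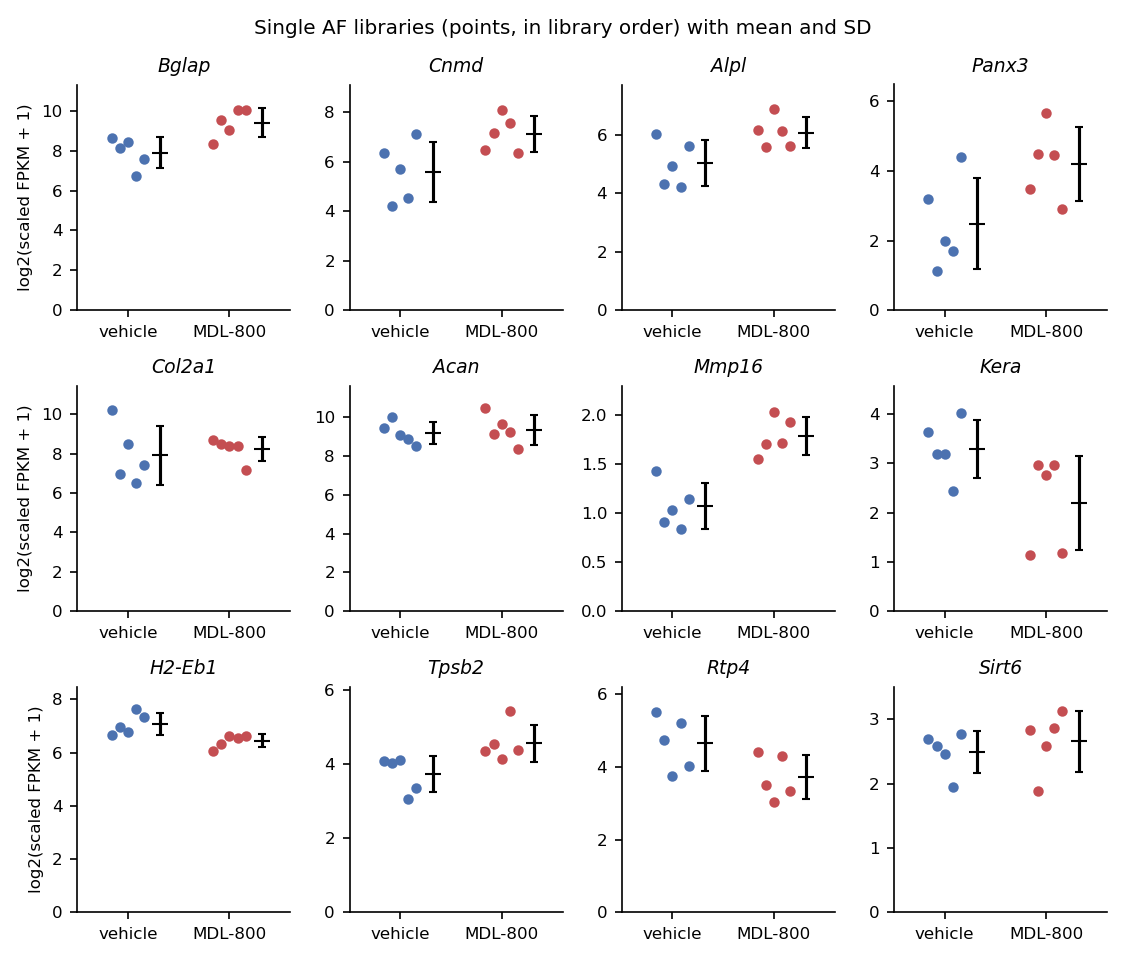
Level of 12 genes in each AF library, as log2(scaled FPKM + 1), with vehicle libraries in blue, MDL-800 libraries in red and the mean ± SD of each group of 5 as black bars. The groups are separate for Mmp16, H2-Eb1 and Tpsb2 and overlap for the other 9 genes, Sirt6 included.

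Among immune lists, MHC class II antigen presentation had the largest share of members with a lower mean at an unadjusted p under 0.05. Class II molecules display peptides to CD4 T cells on dendritic cells, B cells and activated macrophages. Of 13 genes tested, 5 had an unadjusted p under 0.05 with a lower mean after MDL-800 (38.5%, against 0.726% of all genes). Another 5 members had a higher mean, none with such a p, and the median difference over the list was -0.26. Leaving out vehicle library 13 moved that median to -0.15, as did leaving out MDL-800 library 27. The 5 with such a p were H2-Eb1, H2-Aa and H2-Ab1, which encode the chains of the class II molecules, Cd74, their invariant chaperone, and Ctss, the protease that trims it. H2-Eb1 was at 101, 124, 107, 197 and 160 in vehicle AF and at 66.0, 79.5, 97.1, 93.3 and 98.3 in MDL-800 AF. Every MDL-800 library was below every vehicle library, and the difference was -0.63 ± 0.20 (SE). The differences were -0.63 ± 0.23 (SE) for H2-Aa, -0.52 ± 0.21 (SE) for H2-Ab1, -0.45 ± 0.19 (SE) for Cd74 and -0.64 ± 0.26 (SE) for Ctss, with the 2 groups overlapping in each. Vehicle libraries 12 and 13 were the highest for all 5 genes. The other 8 members, among them Ciita, which encodes the master regulator of class II transcription, had no unadjusted p under 0.05.

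Class II promoters are known to share a short module that ends in the Y box, an inverted CCAAT sequence bound by the factor NF-Y. The letters CTGATTGG or their reverse complement were found within 250 bases before the start in 3 of the 10 RefSeq promoters (30%) that matched 9 of the 13 listed genes, and in 1258 of all 32851 promoters (3.83%). Those of H2-Eb1 (chr17:34305727-34305866, plus strand) and H2-Aa (chr17:34287824-34287963, minus strand) are shown because these 2 genes lead the list. Each line gives the last 140 bases before the start on the GRCm38.p6 build, from RefSeq, read 5′ to 3′ on the gene's strand with the match in capitals.
H2-Eb1: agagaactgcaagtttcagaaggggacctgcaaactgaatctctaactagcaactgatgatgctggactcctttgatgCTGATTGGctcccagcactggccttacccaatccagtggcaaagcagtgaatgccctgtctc
H2-Aa: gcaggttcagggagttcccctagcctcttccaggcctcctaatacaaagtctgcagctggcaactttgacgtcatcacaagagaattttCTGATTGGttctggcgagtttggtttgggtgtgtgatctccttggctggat

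Macrophage and monocyte genes had a lower mean in 17 of 20 cases, with a median difference of -0.27. A positive difference was found in 15% of them, against 52.6% of all genes. Only Fcgr1 had an unadjusted p under 0.05, with a lower mean (5%, against 0.726% of all genes). The median was -0.42 without vehicle library 9 and -0.17 without vehicle library 13. Fcgr1 encodes the high-affinity receptor for immunoglobulin G. Its level was 6.36, 2.32, 2.74, 9.07 and 5.99 in vehicle AF and 2.88, 2.05, 2.24, 3.20 and 2.58 in MDL-800 AF, a difference of -0.70 ± 0.29 (SE). Vehicle libraries 8, 12 and 13 were above all MDL-800 libraries, and vehicle libraries 9 and 10 lay among them.

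Mast cell genes had a higher mean in all 9 tested cases, with a median difference of 0.41. Vehicle library 12 was the lowest for 6 of them, and the median was 0.24 without it and 0.22 with a pseudocount of 5. Of the 9 genes, 2 had an unadjusted p under 0.05 (22.2%, against 0.922% of all genes). Tpsb2, which encodes a tryptase of mast cell granules (chr17:25366305-25369098 on GRCm38, plus strand), was at 16.1, 15.4, 16.5, 7.32 and 9.34 in vehicle AF and at 19.6, 22.3, 16.6, 42.0 and 19.7 in MDL-800 AF. The groups did not overlap, although the lowest MDL-800 library, 28, exceeded the highest vehicle library, 10, by little. The difference was 0.83 ± 0.28 (SE). Cma1, a chymase, differed by 0.61 ± 0.26 (SE) with overlapping groups. MDL-800 library 29 had the highest level of Tpsb2 and Cma1, and it also had the highest mean level of adipocyte genes, 5.92 against 4.22 to 5.03 in the others, and of skeletal muscle genes. Whether these go with the mast cell difference was not tested.

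Interferon-stimulated genes had a lower mean in 26 of 28 cases, with a median difference of -0.44, and 2 had an unadjusted p under 0.05 (7.14%, against 0.726% of all genes). The median was -0.25 without vehicle library 8 and -0.29 without vehicle library 12. The 2 genes were Rtp4 and Ifit2. Rtp4, an interferon-induced chaperone of receptors, was at 44.8, 25.8, 12.3, 36.0 and 15.2 in vehicle AF and at 20.0, 10.3, 7.16, 18.8 and 9.09 in MDL-800 AF. The difference was -0.93 ± 0.39 (SE), and the groups overlapped. Ifit2, an antiviral RNA-binding protein, differed by -0.42 ± 0.18 (SE). Isg15, a ubiquitin-like protein that is among the most induced genes of this response, was at 58.3, 64.6, 22.97, 14.4 and 18.5 in vehicle AF and at 69.7, 11.3, 21, 26.9 and 31.4 in MDL-800 AF, a difference of -0.14 ± 0.52 (SE). High and low libraries were present in both groups.

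The list was not uniform in which library led it. Vehicle library 8 had the highest value for 12 of the 28 genes and vehicle library 12 for 9. The GTPase gene Igtp, a target of interferon gamma, was at 91.0 in vehicle library 12 and at 11.6 to 22.2 in the other 9 AF libraries, whereas Isg15 was at 14.4 in that library. The mean level of the list ran from 2.96 in MDL-800 library 27 to 4.30 in vehicle library 8, a span of 1.33. Its median within-group SD was 0.63 on the log2 scale in AF against 0.25 in NP, where its mean level was 2.62 to 2.95.

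Promoters of such genes are known to carry the interferon-stimulated response element, to which factors of the interferon pathway bind. A pair of GAAA runs spaced by any 2 bases, on either strand, was found within 250 bases before the start in 13 of the 24 RefSeq promoters (54.2%) that matched 21 of the 28 listed genes, and in 978 of all 32851 promoters (2.98%). The 3 examples are shown because their genes differ in which libraries they are high: Ifit1 (chr19:34640749-34640888, plus strand), Isg15 (chr4:156200819-156200958, minus strand) and Igtp (chr11:58199416-58199555, plus strand). They are printed as above, with the matches in capitals and a pair of TTTC runs as the form on the opposite strand.
Ifit1: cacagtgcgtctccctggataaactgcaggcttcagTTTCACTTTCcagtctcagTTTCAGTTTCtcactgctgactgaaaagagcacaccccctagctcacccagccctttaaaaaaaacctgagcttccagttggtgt
Isg15: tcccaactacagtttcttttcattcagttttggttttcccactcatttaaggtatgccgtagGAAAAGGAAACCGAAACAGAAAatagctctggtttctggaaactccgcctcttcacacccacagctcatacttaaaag
Igtp: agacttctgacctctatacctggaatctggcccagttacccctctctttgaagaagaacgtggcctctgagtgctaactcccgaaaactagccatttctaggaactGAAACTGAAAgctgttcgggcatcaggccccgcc

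T and NK cell genes had a lower mean in all 16 tested cases, with a median difference of -0.41, none with an unadjusted p under 0.05. The size of that median depended most on vehicle library 12. That library was the highest for 17 of the 18 listed genes. Cd8b1, a chain of the CD8 co-receptor of cytotoxic T cells, was at 1.44, 2.15, 1.24, 19.6 and 1.46 in vehicle AF and at 1.21, 1.09, 2.46, 0.598 and 1.80 in MDL-800 AF. Gzmb, a granule protease of cytotoxic cells that did not pass the filter, was at 43.5 in vehicle library 12 and at no more than 1.62 in any other AF library. The NP library of the same animal held Cd8b1 at 0.385 and Gzmb at 0.118. Without vehicle library 12 the list's median difference was -0.12, and it stayed negative whichever library was left out.

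Neutrophil, B cell and cytokine genes varied widely within both groups. Of 20 neutrophil granule genes, 18 had a positive difference with a median of 0.17, which was -0.15 without MDL-800 library 30. Elane, the elastase of immature granulocytes, was at 299, 94.2, 37.2, 38.8 and 169 in vehicle AF and at 165, 60.6, 134, 268 and 347 in MDL-800 AF. B and plasma cell genes had a median difference of -0.01, complement genes of 0.01 and NF-kB subunits and inhibitors of 0.01. Among the 18 genes of the last, only Traf1, a signalling adaptor, had an unadjusted p under 0.05, with a lower mean (5.56%, against 0.726% of all genes). It differed by -0.39 ± 0.14 (SE). Inflammatory cytokines and chemokines had a median difference of -0.14. Of 27 tested, 8 had a positive difference (29.6%, against 52.6% of all genes), Il6 and Cxcl1 among them, and none had an unadjusted p under 0.05. The median was -0.08 without vehicle library 12 or 13, -0.07 with MDL-800 library 25 left out, and -0.0067 with vehicle library 12 and MDL-800 library 25 both left out. Il6, whose product is an inflammatory cytokine made by disc cells and leukocytes, was at 0.743, 0.299, 0.715, 2.50 and 0.707 in vehicle AF and at 1.25, 2.71, 0.938, 1.74 and 4.82 in MDL-800 AF. Cxcl1, a chemokine that attracts neutrophils, was at 0.366, 2.66, 3.21, 2.41 and 3.70 against 2.88, 12.7, 2.71, 3.72 and 10.9, with libraries 27 and 30 above the rest.

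Nerve genes were set apart by single libraries. Schwann cells wrap peripheral axons in myelin, and 20 of 22 tested genes of these cells had a lower mean after MDL-800, with a median difference of -0.60. None had an unadjusted p under 0.05. Mbp, which encodes a protein of the myelin sheath, was at 56.7, 72.3, 436, 131 and 128 in vehicle AF and at 130, 34.8, 59.5, 97.3 and 59.1 in MDL-800 AF, a difference of -0.85 ± 0.53 (SE). Vehicle library 10 was the highest for 21 of the 24 listed genes, and without it the median difference was -0.31. The mean level of the list was 2.32 in vehicle library 9, the lowest of all 10, so the vehicle group held both ends of the range.

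Axon and sensory neuron genes were far higher in 1 library than in the others. MDL-800 library 25 was the highest for 20 of the 22 listed genes, and only 5 passed the filter of 1 FPKM in at least 5 of 20 libraries. Calca, which encodes the neuropeptide CGRP of pain-sensing neurons, was at 59.6 in that library and at no more than 0.992 in the other 9. Scn10a, a sodium channel of the same neurons, was at 9.48 there and at no more than 0.0391 elsewhere, and Tubb3, a neuronal tubulin, was at 40.1 against at most 1.59. Nefl, a neurofilament protein, was at 18.7 against at most 1.48. The library's summed level of the list was 376 scaled FPKM, against 21.8 to 63.7 in the other AF libraries. The mean difference of the 5 tested genes was positive in each, with a median of 0.48, and it was -0.06 without MDL-800 library 25. No NP library came from the same animal.

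Neurotrophins, guidance cues and their receptors, which steer the growth of nerve fibres, had a median difference of 0.05 over 23 genes tested. Unc5c, a receptor for the guidance cue netrin, was the only one with an unadjusted p under 0.05, with a higher mean (4.35%, against 0.922% of all genes). It was at 1.67, 1.78, 2.80, 1.59 and 3.85 in vehicle AF and 2.87, 4.93, 6.01, 5.65 and 3.33 in MDL-800 AF. The groups overlapped, and the difference was 0.74 ± 0.23 (SE).

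**Figure D3:**
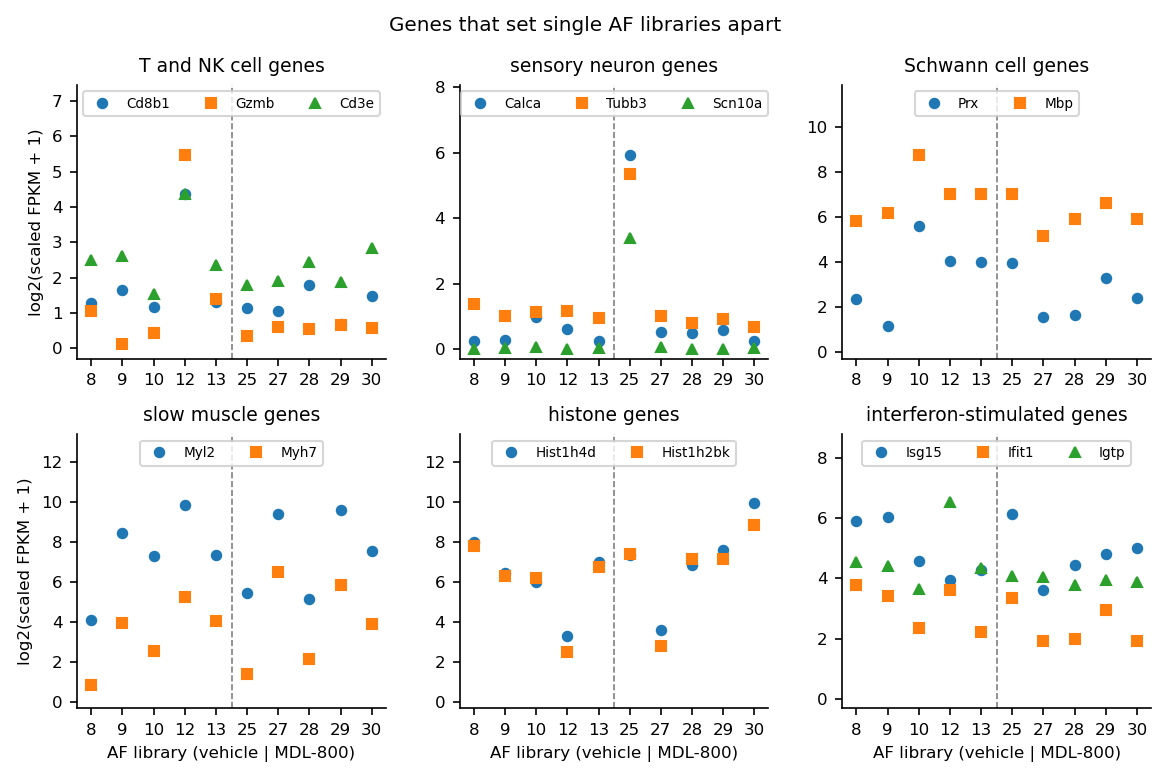
Level of 15 genes of 6 kinds in each AF library, as log2(scaled FPKM + 1) on axes of differing range, with the 5 vehicle libraries left of the dashed line and the 5 MDL-800 libraries right of it. T and NK cell genes peak in vehicle 12, sensory neuron genes in MDL-800 25 and Schwann cell genes in vehicle 10, and histone genes are lowest in vehicle 12 and MDL-800 27.

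Transcripts of neighbouring tissue differed among AF libraries more than between treatments. Skeletal muscle genes spanned 3.36 log2 units in mean level, from 5.28 in MDL-800 library 25 to 8.64 in MDL-800 library 29. Myl2, the regulatory light chain of slow muscle and heart, was at 16.5, 352, 156, 940 and 168 in vehicle AF and at 44.1, 674, 34.7, 800 and 187 in MDL-800 AF, so vehicle library 12 and MDL-800 libraries 27 and 29 were high in both groups. Red blood cell genes spanned 2.26 log2 units. The NP marker Krt19, a keratin of notochord-derived cells, was at 197, 725, 308, 108 and 92.1 in vehicle AF and at 545, 66.9, 143, 283 and 394 in MDL-800 AF. Pericyte and smooth muscle genes had a median difference of 0.20, which was 0.04 without MDL-800 library 29. Of 13 tested, 11 had a positive difference (84.6%, against 52.6% of all genes). Only Myh11, the smooth muscle myosin, had an unadjusted p under 0.05, with a higher mean (7.69%, against 0.922% of all genes). It was at 5.22, 4.80, 5.45, 3.98 and 4.86 against 8.88, 7.83, 5.83, 12.3 and 6.54, without overlap, and differed by 0.63 ± 0.18 (SE). MDL-800 library 29 had its highest level. The contribution of such neighbouring tissue to the differences above was not tested.

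**Figure D4:**
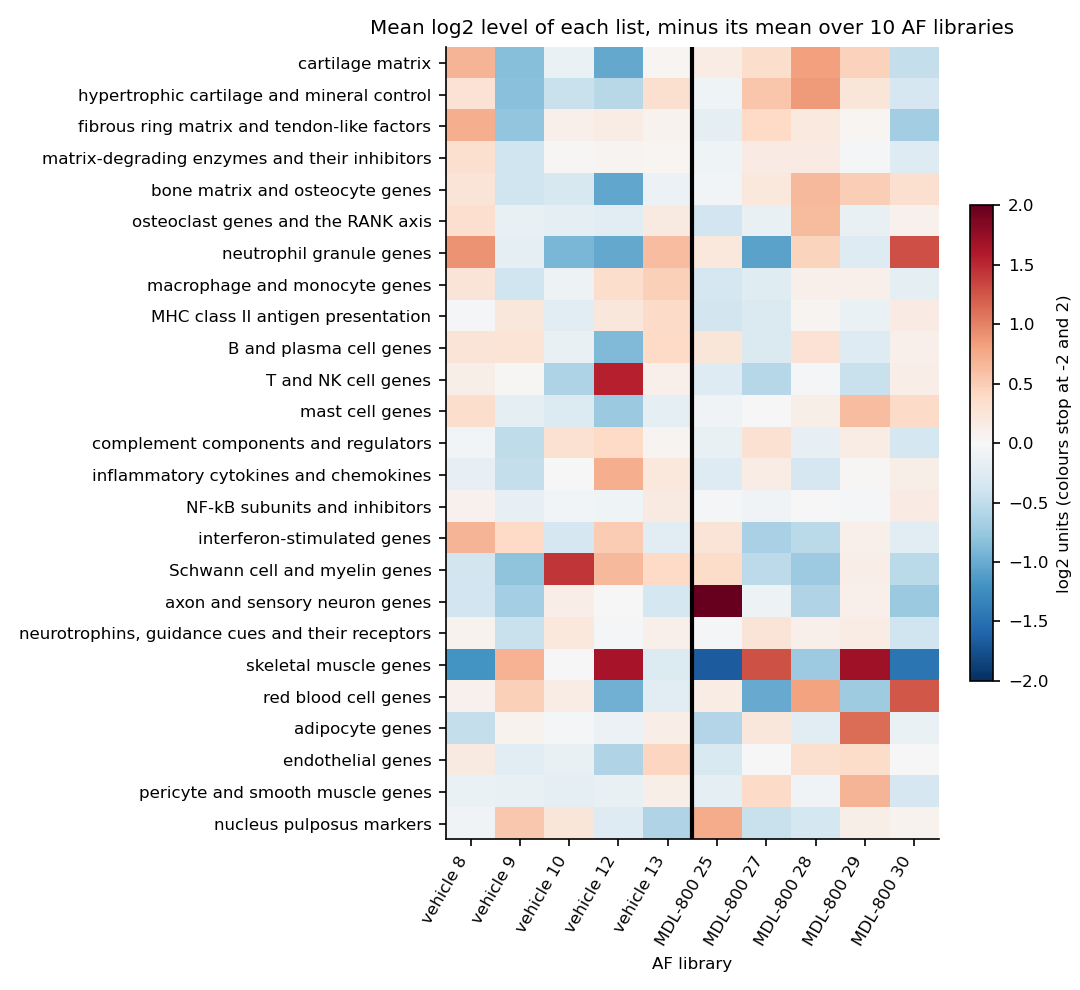
Mean log2 level of 25 gene lists in each AF library, minus the list's mean over the 10 AF libraries; red is above and blue below that mean, colours stop at -2 and 2, and the black line divides vehicle from MDL-800. Skeletal muscle, neutrophil, red blood cell, Schwann cell and axon rows vary most between libraries within a treatment, and the bone row is above its mean in 4 of the 5 MDL-800 columns.

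The spread between libraries was larger in AF than in NP. For each library the median over genes of its absolute log2 deviation from the mean of the other 4 libraries of its group was taken. This was 0.229 ± 0.0358 (SD, n = 10) in AF and 0.171 ± 0.0315 (SD, n = 10) in NP, a difference of 0.057 (two-sided permutation test with 100000 resamples, p = 0.00159). The test treats the libraries as independent, although 8 animals gave one to each tissue. Each value also depends on the other 4 libraries of its group, so the p may be too small. MDL-800 library 30 (0.280), MDL-800 library 27 (0.272) and vehicle library 12 (0.269) deviated most, and MDL-800 library 29 (0.182) least. The within-group SD was larger in AF for 69.2% of genes, with a median of 0.281 against 0.213. For single classes the gap was wider: the median SD was 0.63 against 0.27 for bone genes, 0.71 against 0.43 for cartilage matrix, 0.74 against 0.20 for Schwann cell genes and 0.75 against 0.26 for T and NK cell genes. These lists were also lower in NP. Their mean log2 levels in NP and AF were 1.90 to 2.865 and 3.47 to 5.16 for bone, and 3.68 to 4.49 and 5.19 to 7.03 for cartilage matrix. They were 1.69 to 2.04 and 2.32 to 4.545 for Schwann cell genes, and 0.23 to 1.11 and 1.88 to 4.06 for T and NK cell genes. The log2(scaled FPKM + 1) scale understates the spread of low genes, and its part in these gaps was not tested. The median SD was larger in NP for 6 of the 37 lists, among them neutrophil granule genes (0.91 in AF and 1.35 in NP), skeletal muscle (1.41 and 1.65), immediate early genes (0.53 and 0.61) and macrophage genes (0.47 and 0.51). The first principal component of the 10 AF libraries held 31.7% of the variance and had MDL-800 library 30 at one end and vehicle library 12 at the other. MDL-800 library 27 lay next to the latter, so this axis did not divide the treatments.

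**Figure D5:**
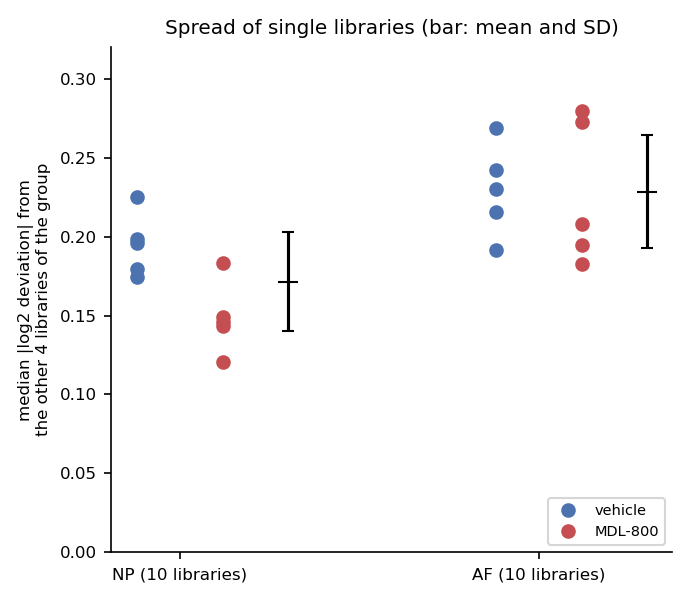
Spread of each library, as the median over 16383 genes of its absolute log2 deviation from the other 4 libraries of its group, for 10 NP and 10 AF libraries (blue vehicle, red MDL-800), with mean ± SD as black bars. AF libraries lie between 0.182 and 0.280 and NP libraries between 0.121 and 0.225.

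The treatment difference was not shown to depend on tissue for any gene. In a fit of all 4 groups, 0 genes passed an adjusted p under 0.05 for the difference between the AF and NP effects (limma), with 611 at an unadjusted p under 0.05. The smallest adjusted p was 0.9997 by limma. That fit has no term for the 8 animals that gave a library of each tissue. With the animal as a random effect, limma again passed 0 genes, with 726 at an unadjusted p under 0.05 and a smallest adjusted p of 0.9991.

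The genes with the smallest p and a mean of at least 5 in the higher group were mostly short RNAs and immunoglobulin segments. Hps4, part of a complex in lysosome-related organelle formation, was the protein-coding exception, at 6.18, 6.23, 5.22, 4.94 and 6.46 in vehicle AF and 3.99, 3.85, 3.85, 3.21 and 4.66 in MDL-800 AF. The groups did not overlap, and the difference was -0.47 ± 0.12 (SE). Igkv8-21, a light chain variable segment, was at 22.1, 7.14, 18.5, 16.0 and 5.61 against 46.5, 39.4, 59.0, 32.3 and 23.2, also without overlap, a difference of 1.56 ± 0.38 (SE). Ighv3-6, a heavy chain segment, differed by 1.61 ± 0.42 (SE). Such segments reflect which B cell clones are present and resemble each other, so their values are uncertain. The small nuclear RNA genes Gm23849 and Gm23971 have identical values and identical sequences and differed by -1.70 ± 0.46 (SE), so they are 1 measurement. The share of summed FPKM that fell on small RNA genes was 14.4%, 19.2%, 10.1%, 12.2% and 31.1% in vehicle AF and 12.8%, 8.90%, 8.52%, 12.3% and 13.9% in MDL-800 AF. Its part in the differences of short RNAs was not tested.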

How the data were processed

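The authors deposited 1 table of FPKM (fragment counts normalised to transcript length and library total), rounded to 2 decimals, for 51789 genes in 20 libraries. Per the labels' protocols, a stranded kit for total RNA with removal of ribosomal RNA was used, the input was 50 ng, and the final amplification took 14 PCR cycles. STAR 2.7.11b and the build mm10 are named in the submitters' processing notes. The program that made the FPKM values and its annotation are not given in the sources used here.

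Libraries were scaled by median-ratio factors (0.956 to 1.06 in AF) from 11308 genes that reached 1 FPKM in every one of the 20 libraries. The filter kept the 16383 genes that reached 1 FPKM in 5 libraries. FPKM values are not counts, so the moderated linear model of limma 3.58.1 (R 4.3.3, trend option on, two-sided) was fitted on log2(scaled FPKM + 1) of the 10 AF libraries, with Benjamini-Hochberg adjustment. On this scale the change of low genes is understated. On simulated data with the spread of these libraries, the test found 62% of 200 altered genes when the log2 change was 1 and 91.5% when it was 2, with 5 and 3 false calls. Whether these detection rates hold for the measured libraries, in which single libraries moved whole gene lists, was not tested. Sirt6 was tested with an exact permutation test. Depth was estimated from the spacing of low FPKM values in single-exon genes (lengths 400 to 1200 nucleotides): 79.9% to 85.4% of AF values used fell within 0.15 of a whole fragment, against 30% for values with no steps. Depth limits low genes only, and no read counts entered a test.

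The libraries, the 37 gene lists and the rule for naming genes were chosen with earlier results of these data known. Named are the leading 5 genes per direction by p (mean of at least 5), preset members of each list, the member with the smallest p of each list, and genes of large spread. Gm3470 and the histone genes were chosen after their values were seen. Lists are described by counts and medians with no test. GENCODE M21 (GRCm38) gave coordinates and held 51596 of the gene identifiers. Near-identical copies were searched with BLAST 2.17.0 (95% identity over 80% of the transcript). The labels do not say whether tissue of several discs or levels was combined for a library, and p-values measure the spread between these samples. Differences between tissues came from a fit of all 4 groups, and from one with the animal as a random effect. Alternatives covered scaling, pseudocount, filters, fit options, covariates and left-out libraries. Results for a few genes are not reported here.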

Additional observations from a re-analysis of the deposited data

Results flagged for a closer look

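Dixon's criterion for the highest or lowest of 5 libraries was applied to 69 genes and 37 list means in both AF groups. It singled out 16 values among 212 groups examined (7.55%), and chance alone singles out about 1 in 20. Members of a list share their source, and some genes were examined because a library stood apart in them, so the 2 shares cannot be compared.

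In MDL-800 library 25, Calca was at 59.6 scaled FPKM against 0.19 to 0.482 in the other 4 of its group, Scn10a at 9.48 against 0 to 0.0391, Tubb3 at 40.1 against 0.579 to 1.02, Prph at 23.03 against 1.20 to 2.10 and Nefl at 18.7 against 0.0379 to 0.284. The mean log2 level of the axon and sensory neuron list was 5.24 there against 1.88 to 2.72.

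In vehicle library 12, Cd8b1 was at 19.6 against 1.24 to 2.15, Gzmb at 43.5 against 0.0772 to 1.62, and Gbp2, an interferon-induced GTPase, at 114.5 against 16.7 to 24.6.

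In vehicle library 8, Ibsp, which encodes bone sialoprotein, was at 348.8 against 91.2 to 121, Col10a1 at 135 against 25.2 to 35.6, Col1a1 at 1964 against 339 to 514 and Cpa3, a mast cell carboxypeptidase, at 19.1 against 9.54 to 11.2. Cxcl1 was lowest there, at 0.366 against 2.41 to 3.70.

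Col2a1 was lowest in MDL-800 library 30, at 143 against 334 to 418. The mean log2 level of pericyte and smooth muscle genes was highest in vehicle library 13, at 4.03 against 3.75 to 3.79.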

How the results depend on the processing

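No paired analysis was possible because the replicate numbers of the AF groups do not overlap and no animal gave libraries to both treatments. For the difference between tissues, the animal as a random effect (a replicate block, added after seeing the data) left the count at 0 by limma (726 at an unadjusted p under 0.05, against 611). Of 30 alternatives, 28 made no call by limma at an adjusted p under 0.05. Leaving out one library gave 0 to 1 genes: Gm14440 without MDL-800 library 25 (-2.19, limma adjusted p = 0.0167) and Gm15526 without MDL-800 library 29 (1.12, limma adjusted p = 0.0143). The number of genes at an unadjusted p under 0.05 ran from 157 among protein-coding genes alone to 688 with no filter. It was 174 with a filter of all 10 AF libraries, 436 with all 4 groups in the fit, 452 with the bone list as a covariate, and 211 to 396 when one library was left out. With a pseudocount of 5 the medians were 0.44 for bone, -0.24 for T and NK cell and -0.30 for Schwann cell genes. Quantile normalization moved the share of positive differences from 52.6% to 48%. The Sirt6 difference ran from 0.03 to 0.36 when one library was left out. The spread difference between tissues was 0.041 to 0.067 over its alternatives and stayed past its threshold in each.

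Several omissions and covariates were chosen after seeing the data. Without vehicle library 12 and MDL-800 library 25, these turned sign: Sirt6 (-0.0164), Col2a1 (-0.16), Acan (-0.20), Comp (-0.14), and the medians for osteoclast (0.0199), neutrophil (-0.0624), NF-kB (-0.0522), skeletal muscle (0.41), red blood cell (-0.0351), NP marker (-0.12), sirtuin (-0.0164), senescence (-0.027), proliferation (-0.0466) and clock genes (0.0301). With the bone list as a covariate, Dlx5 (-0.11), Sp7 (-0.0848), Col9a2 (-0.21), Col11a2 (-0.22), Col2a1 (-0.88), Comp (-0.84) and Cd8b1 (0.42) turned sign. That covariate contains Dlx5 and Sp7. Other settings turned Comp (-0.0317, array weights), Isg15 (0.0653, Xist as a covariate), and the medians for osteoclast genes (0.00278, pseudocount 5), B and plasma cell genes (0.0147, pseudocount 0.1), complement (-0.00625) and NF-kB genes (-0.000524, both with quantile normalization).

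Leaving out one library gave differences of -0.11 to 0.41 for Acan, -0.044 to 0.89 for Col2a1, -0.17 to 0.37 for Comp and -0.47 to 0.16 for Isg15. List medians that crossed 0 in this way ran from -0.26 to 0.0947 for B and plasma cells, -0.0228 to 0.0875 for DNA repair, -0.056 to 0.065 for NF-kB, -0.0163 to 0.0995 for NRF2, -0.0267 to 0.045 for Y-linked genes with Xist, -0.10 to 0.34 for adipocytes, -0.0486 to 0.00349 for autophagy, -0.0634 to 0.75 for axons, -0.0874 to 0.33 for proliferation and -0.15 to 0.0238 for clock genes. They ran from -0.15 to 0.0829 for complement, -0.30 to 0.0951 for fibrous matrix, -0.10 to 0.0522 for glycolysis, -0.12 to 0.0448 for matrix degradation, -0.0262 to 0.12 for neurotrophins, -0.15 to 0.47 for neutrophils, -0.15 to 0.27 for NP markers, -0.15 to 0.10 for osteoclasts, -0.0881 to 0.45 for red blood cells, -0.0643 to 0.0992 for senescence, -0.0135 to 0.13 for sirtuins and -0.82 to 0.0196 for skeletal muscle. The causes were not tested. Of 44 genes followed, 35 kept their sign under every alternative. The 44 include genes named for a small p in these same libraries, which makes a change of sign unlikely. The count is therefore no measure of robustness. Sequencing depth was similar in both groups, and the number of libraries limits the precision.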

Other observations

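Replication-dependent histone genes, a set collected after the data were seen, varied more than any of the preset lists. Their mean log2 level over 57 tested genes ran from 2.34 in vehicle library 12 and 2.42 in MDL-800 library 27 to 6.87 in MDL-800 library 30. Hist1h4d was at 254, 88.3, 63.9, 8.91 and 130 in vehicle AF and at 165, 11.3, 117, 197 and 985 in MDL-800 AF. All 57 genes had a positive difference with a median of 0.71, and 0 had an unadjusted p under 0.05. The median was 0.16 without MDL-800 library 30 and 1.39 without MDL-800 library 27. The same libraries ranked alike for red blood cell genes (4.70 in MDL-800 27, 4.75 in vehicle 12 and 6.96 in MDL-800 30) and for cell proliferation genes (4.17, 4.18 and 5.96).

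Most lists of cell processes had medians near no difference. Cell proliferation genes had a median of 0.12, with 19 of 20 positive (95%, against 52.6% of all genes). That median was -0.0874 without MDL-800 library 30 and 0.33 without MDL-800 library 27. Among the others, medians were -0.03 for glycolysis and HIF targets, -0.03 for autophagy and 0.02 for senescence and cell cycle arrest. They were 0.06 for DNA repair, 0.04 for chromatin enzymes and 0.06 for the NRF2 pathway and oxidant defence. In the last, 1 of 23 genes tested had an unadjusted p under 0.05 with a higher mean (4.35%, against 0.922% of all genes). Another 1 had such a p with a lower mean (4.35%, against 0.726%). Within that list Mt1, a metal-binding protein, was at 123, 96.1, 98.5, 62.2 and 80.5 in vehicle AF and at 222, 95.5, 81.8, 171 and 240 in MDL-800 AF, a difference of 0.71 ± 0.32 (SE). Hmox1, haem oxygenase 1, differed by -0.48 ± 0.21 (SE). Immediate early genes, which respond within minutes to handling as well as to signals, had a median of 0.38 (0.24 without vehicle library 12). A positive difference was found in 18 of 20 cases (90%, against 52.6% of all genes). An unadjusted p under 0.05 with a higher mean was found in 2 (10%, against 0.922% of all genes). Myc and Zfp36 differed by 0.52 ± 0.20 (SE) and 0.61 ± 0.27 (SE). Circadian clock genes had a median of -0.02 and heat shock chaperones of 0.05.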
